A study of Mus musculus with 12 samples.

Results

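The cytosolic ribosomal protein (RP) genes encode the proteins of the ribosome that works outside the mitochondria. Members were chosen by symbol alone: Rpl and Rps with a number and up to 1 letter and 1 digit, Rplp0, Rplp1, Rplp2 and Rpsa, leaving out symbols with -ps and the Rps6k kinases. This rule took 87 of the 22317 gene symbols in the count table, 52 of the large subunit (Rpl) and 35 of the small subunit (Rps). In GENCODE M21, on the mm10 build used by the authors, 82 of them were protein coding, 4 were processed pseudogenes (Rpl6l, Rpl32l, Rps3a2 and Rps3a3) and 1 was a transcribed processed pseudogene (Rps4l). The rule itself uses no measured value.

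A ribosome holds each of its core proteins in the same number of copies, apart from the acidic stalk proteins, and the genes for them lie scattered over the genome. Their mRNAs begin with a stretch of pyrimidines, the terminal oligopyrimidine (TOP) tract, through which mTOR and Larp1 govern their translation together. Growing, dividing and secreting cells hold much RP mRNA, and loss of 1 copy of several of these genes causes Diamond-Blackfan anaemia, a failure of red cell production. RP genes have also left many processed pseudogenes, so that reads from an RP mRNA can match several places.

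Poly(A) RNA of 12 libraries was analysed, 3 in each of 4 groups of young adult wild-type male BALB/c mice. All groups received photothrombosis (PT), in which a laser closes vessels after injection of the dye Rose Bengal. Groups SB2 and SB4 were labelled brain cortex on day 2 and day 4 after injury of the skull, and groups BS2 and BS6 were labelled interparietal bone on day 2 and day 6 after injury of the brain. Libraries of uninjured controls were not analysed here. The labels do not name the mouse behind a library, and the methods speak of biological replicates without saying whether tissue was pooled, so the p-values measure the spread between these libraries.

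The marker genes of 2 of the 4 groups went against their tissue labels, and every comparison between days carries this difference. Summed markers of neurons (10 genes) lay between 72.1 and 114 CPM (counts scaled to a common library total) in the libraries labelled SB2 and between 73.4 and 144 in those labelled BS6, against 11160 to 12590 in SB4 and BS2. Summed fibrous matrix markers (8 genes) lay between 51520 and 211600 CPM in SB2 and BS6 and between 156 and 261 in SB4 and BS2. Of the 5 osteoclast markers in the table, Ocstamp had no count in SB4 or BS2. The libraries labelled SB2, from brain by their label, thus held the markers of bone, and those labelled BS2, from skull by their label, held the markers of brain. The group names below are therefore only names of labelled libraries. In bulk tissue, fewer cells of a type and less RNA per cell cannot be told apart.

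Library totals lay between 14126082 and 18972654 counts. Replicate 2 of BS6 stood apart, with 25690 CPM of summed neutrophil lineage markers against 1444 and 3500 in replicates 1 and 3. It had 51520 CPM of fibrous matrix markers against 165400 and 211600, and 12730 of erythroid markers against 8345 and 7609. Results that include BS6 are also given without this library where it changes them.

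The starts of several members are shown because the pyrimidine stretch of TOP mRNAs lies there. The genes listed are among those that differed least or most between groups or form a pair of paralogs, and Rpl22 is one whose window holds no run longer than 3. The RefSeq promoter table (GRCm38.p6) matched 63 of the 87 members. Each line gives 30 bases on the gene's strand, 5′ to 3′, 10 before the annotated start and 20 from it on, with the longest unbroken run of C and T in capitals.

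Rpl15 (chr14:18270967-18270996, minus strand): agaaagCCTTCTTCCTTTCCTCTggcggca
Rpl28 (chr7:4792955-4792984, plus strand): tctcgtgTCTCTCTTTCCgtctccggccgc
Rpl27a (chr7:109519185-109519214, plus strand): cgtgagCTCCTCCCTTTTCCCTTTCTgcca
Rps6 (chr4:86857348-86857377, minus strand): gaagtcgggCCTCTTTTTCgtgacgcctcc
Rplp0 (chr5:115559457-115559486, plus strand): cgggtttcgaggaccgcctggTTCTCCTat
Rpl18 (chr7:45718061-45718090, plus strand): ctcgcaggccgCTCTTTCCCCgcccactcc
Rps9 (chr7:3704031-3704060, plus strand): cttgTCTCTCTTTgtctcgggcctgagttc
Rps27 (chr3:90213629-90213658, minus strand): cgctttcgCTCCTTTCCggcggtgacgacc
Rps27l (chr9:66946076-66946105, plus strand): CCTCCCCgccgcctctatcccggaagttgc
Rpl39 (chrX:37085203-37085232, minus strand): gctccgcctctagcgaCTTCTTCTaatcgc
Rpl39l (chr16:10170218-10170247, plus strand): aggCCTTTCCggatttccggtggtcgccat
Rpl22 (chr4:152325716-152325745, plus strand): CCTgggaaaagcaatagctggccgatcgtt
Rpl22l1 (chr3:28805498-28805527, plus strand): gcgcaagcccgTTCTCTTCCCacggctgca

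A run of at least 7 pyrimidines stood in this window in 30 of the 63 members (47.6%) and in 17.9% of 27025 promoters with 1 entry per symbol. Over the whole 300 bases of the table (250 before the start and 50 from it on), CTCTTT on the gene's strand stood in 22 of 63 members (34.9%) and in 3236 of the 27025 promoters. CTTTCC, which can overlap it, stood in 34.9% of members and in 3796 of the 27025 promoters. CCGGAAG, searched on both strands, stood in 39.7% of members and 9.1% of all promoters. Annotated starts can miss the true start by some bases, and a match describes letters, not a binding site. Members with the run had a median log2 fold change of -1.88 from SB2 to SB4 (29 tested) and those with a shorter run -1.75 (32 tested). From BS2 to BS6 the order turned, with 1.54 (29 tested) and 1.66 (32 tested). The medians thus lay close together in both comparisons.

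The levels of the members differed widely among themselves. Averaged over the 12 libraries, their level ranged from 0.37 to 677.9 CPM with a median of 50.6, and 36 members reached 100 CPM. Per length of the principal transcript, the highest was Rplp1, a stalk protein that recruits elongation factors, at 980 CPM per kb. Rps15, a protein of the small subunit head, followed at 653, Rpl41, a short basic peptide between the subunits, at 601, Rpl4 at 441 and Rps14, whose loss impairs red cell formation, at 438. Rplp1 was the highest in each group, but the order of the others differed: Rpl41 had 1170 CPM per kb and Rps15 1007 in SB2, against 165.0 and 331.7 in SB4. The lowest were Rpl24 at 0.77 CPM per kb, Rpl32l at 0.927, Rpl23a at 2.64, Rpl26 at 2.80 and Rpl21 at 2.82. Except for Rpl32l, these are genes of core proteins.

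Of each principal transcript, the share of 100-base windows found in no other gene of GENCODE M21 ranged from 1.63% in Rps27 to 100% in 8 members. Rpl24 and Rpl23a had 19.90% and 19.96% of their windows to themselves, but Rpl21 had 83.3% and Rpl26 had 69.0%. Across the 87 members, this share and the log2 level per kb had a Pearson correlation of 0.20 and a Spearman correlation of 0.22, as a description over genes that share libraries. The median level was 21.01 CPM per kb in the 13 members with up to 25%, 92.4 in the 14 with over 25 to 50%, 20.4 in the 25 with over 50 to 75% and 147 in the 35 with over 75%, so it did not rise steadily with this share. Rps3a2, annotated as a processed pseudogene, had 21.4% of its windows to itself and a level of 215 CPM per kb. How reads with several matches were counted is not stated, so levels of members with copies are uncertain, and the counts of a parent and its copy cannot be fully told apart.

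**Figure D1:**
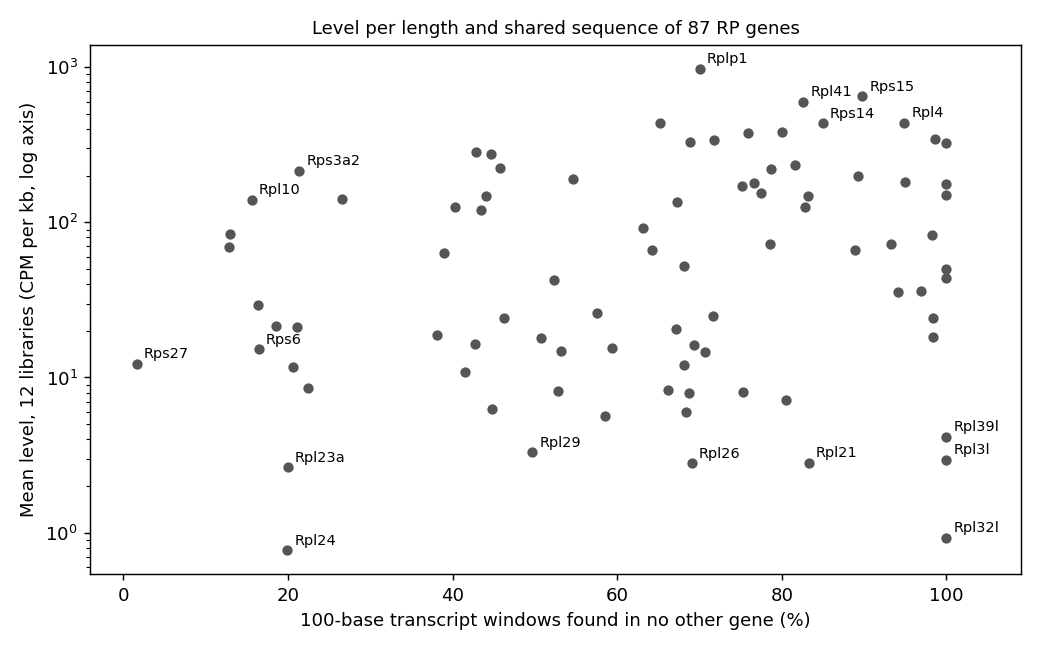
Mean level over 12 libraries in CPM per kb (vertical, log axis) against the share of 100-base transcript windows found in no other gene (horizontal, in percent), 1 point for each of the 87 members. Rpl24 and Rpl23a are low with few windows of their own, while Rpl21 and Rpl26 are low with 83.3% and 69.0%.

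As a share of all counts, the family divided the groups into 2 high and 2 low. The summed members took 1.725%, 1.88% and 1.78% of the counts in the 3 libraries of SB2, and 1.52%, 1.69% and 1.395% in those of BS6. In SB4 they took 0.415%, 0.401% and 0.377%, and in BS2 0.4205%, 0.440% and 0.380%. The ranges of the high and the low groups did not overlap, whereas SB4 and BS2 overlapped.

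The mean share was 4.51 times higher in SB2 (1.79% ± 0.077, SD, n = 3) than in SB4 (0.397% ± 0.019), and 3.72 times higher in BS6 (1.54% ± 0.15) than in BS2 (0.4135% ± 0.031). Each of these 2 differences had p = 0.1 in a two-sided exact permutation test, the smallest that 3 against 3 libraries allow. SB2 and BS6 differed 1.17-fold (exact p = 0.1), and SB4 and BS2 1.04-fold (exact p = 0.4). No p-value among these 4 comparisons could pass 0.05, before or after adjustment. Between the high and the low groups, markers of bone, marrow and dividing cells moved with the share. Between SB2 and BS6, erythroid and B cell markers went against it without overlap, with values given below. Neutrophil lineage and fibrous matrix markers also had higher medians in BS6 (3500 against 1238 and 165400 against 105100 CPM), but their ranges overlapped. Medians of osteoblast and osteocyte, osteoclast and dividing cell markers were lower in BS6. Summed markers of dividing cells (6 genes) lay between 366 and 712 CPM in SB2 and BS6 and between 35.8 and 42.1 in SB4 and BS2, and the part of these cell types in the result was not tested.

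The mitochondrial RP genes, 77 genes for the ribosome inside mitochondria, took 0.215% of counts in SB2, 0.170% in SB4, 0.172% in BS2 and 0.163% in BS6. Their share was thus 1.27 times higher in SB2 than in SB4 (exact p = 0.1) and 1.06 times lower in BS6 than in BS2 (exact p = 0.4), against 4.51 and 3.72 times for the cytosolic family. Large subunit genes took 51.7% of the members' counts in SB2, 52.8% in SB4, 52.0% in BS2 and 51.8% in BS6, so the balance of the subunits differed by at most 1.09 percentage points between groups. The 115 symbols with -ps, mostly RP pseudogenes, held counts equal to 18.3% of the members' counts in SB2 and 16.8% in BS6, and 23.4% and 23.6% in SB4 and BS2.

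**Figure D2:**
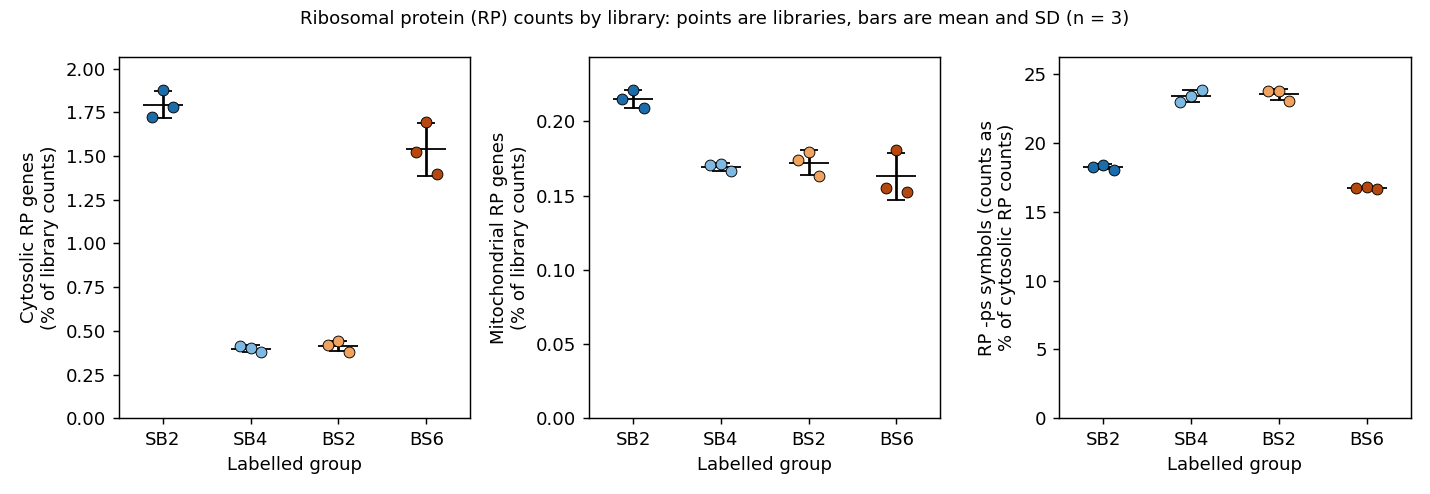
Counts of cytosolic RP genes and of mitochondrial RP genes as percent of each library, and counts of RP symbols with -ps as percent of the cytosolic RP counts, by labelled group. Points are libraries and bars are mean and SD (n = 3). The cytosolic share lies at or above 1.395% in every library of SB2 and BS6 and at or below 0.440% in every library of SB4 and BS2.

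From SB2 (day 2), with bone markers, to SB4 (day 4), with brain markers, nearly the whole family fell. Here and below, falls and rises name differences between labelled groups in which day and tissue content differ together. Counts were compared by the quasi-likelihood test of edgeR with Benjamini-Hochberg adjustment over all genes tested. Of 85 members that passed the filter on low counts, 81 were lower in SB4 than in SB2 at an adjusted p under 0.05, none was higher and 4 did not pass. Among all 17293 genes tested, 42.0% were lower and 41.3% higher by the same rule. With an absolute log2 fold change over 1 as well, the rule of the study for changed genes, 74 members fell, against 28.6% of all genes. The libraries of 81 members did not overlap in this direction, against 43.1% of all genes. The median log2 fold change of the members was -1.88, beside -0.01 for all genes tested, and it stayed at -1.88 with Rpl39l set to its bound. All 35 small subunit genes fell, and 46 of 50 large subunit genes.

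The ribosomal stalk, which binds translation factors, fell as a whole. Rplp0 (chr5:115559467-115563727), the protein that anchors the stalk and a common reference gene in quantitative PCR, had 572, 671 and 622 CPM in SB2 and 54.1, 51.3 and 52.1 in SB4. Its log2 fold change was -3.56 ± 0.085 (SE), an 11.8-fold lower level (adjusted p = 1.17e-11). Apart from the paralogs Rpl39l and Rpl3l, no member had a larger fold change. Rplp1 fell by 2.38 ± 0.092 on the log2 scale and Rplp2 by 2.37 ± 0.086. The Rplp1 libraries had 802, 979 and 874 CPM in SB2 and 180.5, 166.5 and 161 in SB4, with no overlap.

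Among small subunit genes, Rpsa, which is also known as the laminin receptor, had 1177, 1323 and 1232 CPM in SB2 and 227, 213 and 206 in SB4 (log2 fold change -2.53 ± 0.082). Rps19, the gene most often mutated in Diamond-Blackfan anaemia, fell from 188 to 36.2 CPM on average (-2.37 ± 0.085). Rps14 fell by 1.84 ± 0.085. Rps6, the substrate of the S6 kinases downstream of mTOR, had 18.6, 18.0 and 17.0 CPM in SB2 and 9.22, 10.98 and 10.75 in SB4. Its fall by 0.79 ± 0.12 was among the smaller ones, and only 16.4% of its windows are its own. Of 18 genes of the family listed for Diamond-Blackfan anaemia, all 18 fell (42.0% of all genes), with a median of -1.81 near that of the whole family.

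Among large subunit genes, Rpl5 and Rpl11, which form a particle with 5S rRNA and can bind Mdm2, fell by 1.72 ± 0.11 and 1.80 ± 0.085. Rpl41 fell by 2.82, Rpl18 by 2.77 and Rpl4 by 1.56. At the other end stood Rpl15, a core protein of the large subunit. It had 60.2, 56.6 and 59.7 CPM in SB2 and 52.7, 50.2 and 46.2 in SB4, and its fall of 0.24 ± 0.076 passed the test (adjusted p = 0.0123) but not in the fit of all 12 libraries or without SB4 replicate 2 or 3. The 4 members that did not pass were Rpl21 (0.24 ± 0.19), Rpl23a (-0.02 ± 0.32), Rpl28 (-0.36 ± 0.18) and Rpl29 (-0.44 ± 0.30). Rpl28 passed without SB2 replicate 3, with total counts or with upper-quartile scaling. The 95% interval of Rpl21, -0.13 to 0.61, lay apart from the family median, and that of Rpl29 reached from -1.02 to 0.15.

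From BS2 (day 2), with brain markers, to BS6 (day 6), with bone markers, the family moved the other way. Of 85 members tested, 80 were higher in BS6 than in BS2 at an adjusted p under 0.05, 2 were lower and 3 did not pass. Of all 17311 genes tested, 38.2% were higher and 36.8% lower. With the fold rule 66 members rose, against 29.0% of all genes, and none fell, against 26.5%. The libraries of 80 members did not overlap with BS6 higher (39.7% of all genes), and those of 2 with BS6 lower (41.0%). The median log2 fold change was 1.68, and again 1.68 with Rpl39l at its bound. Without BS6 replicate 2 the counts were 80 higher and 2 lower, with a median of 1.66.

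Rplp0 had 51.7, 62.0 and 50.3 CPM in BS2 and 553, 533 and 534 in BS6, a log2 fold change of 3.34 ± 0.13 and a 10.1-fold higher level (adjusted p = 5.07e-06). Rplp2 rose by 2.35 ± 0.22 and Rplp1 by 2.01 ± 0.15. In the libraries of Rplp2, BS6 replicate 2 was the highest with 269 CPM, against 179 and 169 in the other 2. Rps20, a small subunit head protein, rose by 2.79 ± 0.13. Its 36.8, 38.0 and 31.4 CPM in BS2 stood against 256, 242 and 218 in BS6.

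Rps9, which lies near the mRNA entry site, had 99.2, 105 and 99.2 CPM in BS2 and 527, 881 and 554 in BS6 (2.73 ± 0.23). Its library of replicate 2 was 1.53 times above the mean of the other 2 as a share of the family's counts. For Rps27a, which encodes ubiquitin fused to an RP, that ratio was 1.70, and its libraries had 22.04, 47.4 and 30.3 CPM in BS6. Rpl15 showed the opposite, with a ratio of 0.618. Among the BS6 libraries, replicate 2 also had the most neutrophil lineage, erythroid and dividing cell markers. It had the fewest fibrous matrix, osteoblast and osteocyte, and osteoclast markers. The part of these cell types in the ratios was not tested.

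Only Rpl15 and Rpl21 were lower in BS6 than in BS2. Rpl15 had 51.0, 51.2 and 47.0 CPM in BS2 and 39.0, 24.2 and 34.6 in BS6 (-0.57 ± 0.18, adjusted p = 0.0251). Rpl21 had 5.31, 6.40 and 7.77 CPM in BS2 and 2.54, 2.78 and 4.71 in BS6 (-0.92 ± 0.30, adjusted p = 0.0272). The Rpl15 call was lost without any 1 library of BS2 without BS6 replicate 3 or with upper-quartile scaling, and that of Rpl21 without BS2 replicate 2 or 3 or BS6 replicate 1. Rpl23a (-0.765 ± 0.34), Rpl27a (0.16 ± 0.13) and Rpl29 (0.28 ± 0.40) did not pass. Without BS2 replicate 3, Rpl23a passed as lower in BS6 (-1.01 ± 0.32, adjusted p = 0.0352). Rps6 rose by 0.54 ± 0.14 (adjusted p = 0.0118) and Rpl28 by 0.55 ± 0.17, but the former did not pass without BS2 replicate 3 and the latter without BS2 replicate 1 or 3. Of the 18 Diamond-Blackfan genes, 17 rose (38.2% of all genes) and Rpl15 fell, close to the share of the whole family.

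The 2 comparisons use different libraries. Of the members, 79 were called lower in SB4 than in SB2 and higher in BS6 than in BS2, as were 5938 (35%) of the 16953 genes tested in both. Across the 85 members tested in both, the fold changes had a Pearson correlation of -0.96, or -0.92 without Rpl39l and Rpl3l, and a Spearman correlation of -0.91. This is a description across genes, which are not independent replicates, and each comparison sets libraries with bone markers against libraries with brain markers. The difference between the 2 changes, fitted as a contrast over all 12 libraries, passed the test for 83 of 86 members. It was negative for 82 of them, against 43.2% of all genes, and positive for 1, Rpl21, against 41.7%.

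**Figure D3:**
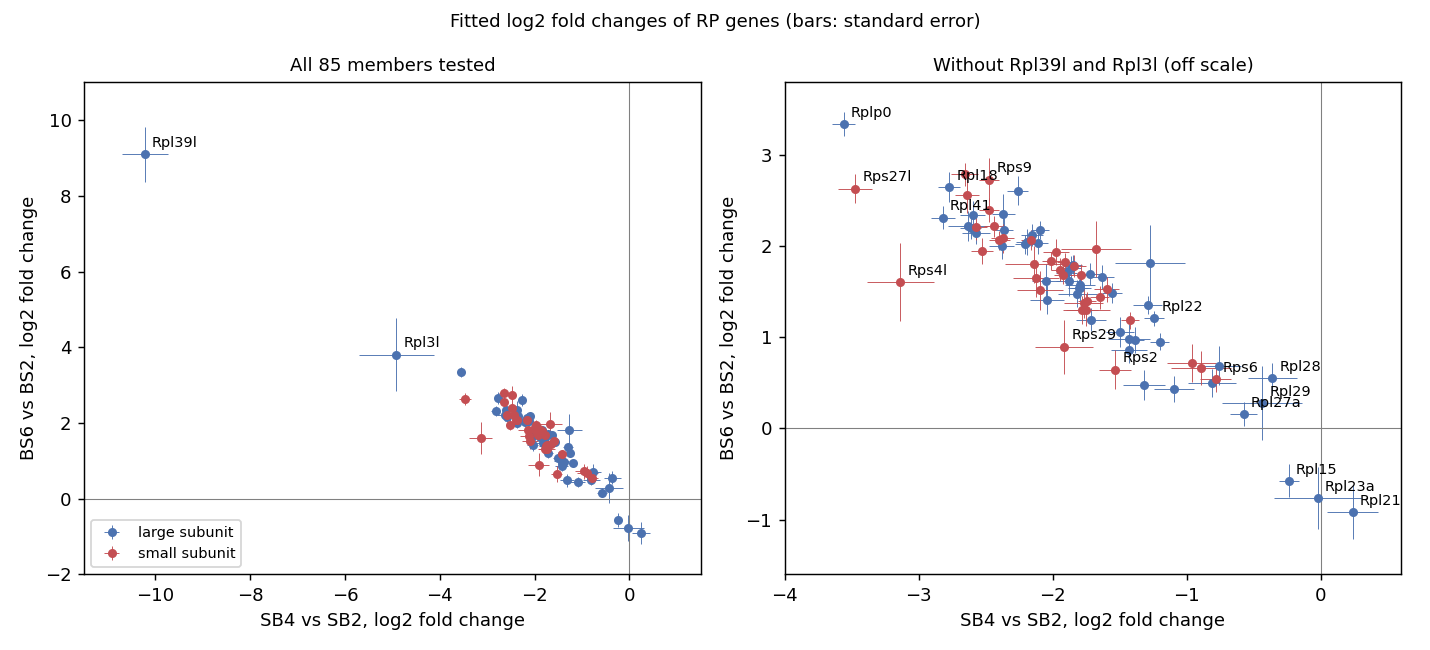
Log2 fold change of SB4 against SB2 (horizontal) and of BS6 against BS2 (vertical), 1 point for each of 85 members with standard errors, large subunit in blue and small subunit in red. The right panel leaves Rpl39l and Rpl3l off its scale. Rplp0 lies furthest up and left there, while Rpl15, Rpl23a and Rpl21 lie at the lower right.

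Members did not all move by the same amount. In a further fit, the summed counts of the members served as library size. Each gene was thus compared with the family's total, which holds the gene itself and in which abundant members weigh most. On this scale the median log2 fold change of the members was 0.21 in SB4 against SB2 and -0.23 in BS6 against BS2. For all genes it was 2.07 and -1.88, a shift that the scaling itself brings. In SB4 against SB2, 37 members were higher and 23 lower, where 78.4% of all genes were higher and 13.3% lower. In BS6 against BS2, 15 were higher and 35 lower, with 14.2% and 73.5% of all genes. Of these, 30 were higher within the family in SB4 and lower in BS6, which is 30 of the 37 and 30 of the 35, while 73.3% of all genes tested in both had this pattern. Another 13 (11.4% of all genes) were lower in SB4 and higher in BS6, among them Rplp0, Rplp2, Rpl18, Rpl41, Rps9, Rps20 and Rps28. Rplp0 was 1.44 ± 0.12 above the family in BS6 against BS2, while Rpl15 was 1.84 ± 0.097 above it in SB4 against SB2 and 2.47 ± 0.21 below it in BS6 against BS2. Fold changes also varied with level and shared sequence. The Spearman correlation of the fold change with the log2 mean level over the members was -0.41 for SB4 against SB2 and 0.51 for BS6 against BS2, and that with the share of windows of their own was -0.31 and 0.34. Pearson correlations were weaker for level, at -0.11 and 0.23, and were -0.32 and 0.32 for the share of windows. By class, the median log2 fold change of SB4 against SB2 was -1.35 in members with up to 25% of their windows to themselves and -2.13 in those with over 75%. Whether reads of copies flatten the changes of low members was not tested.

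**Figure D4:**
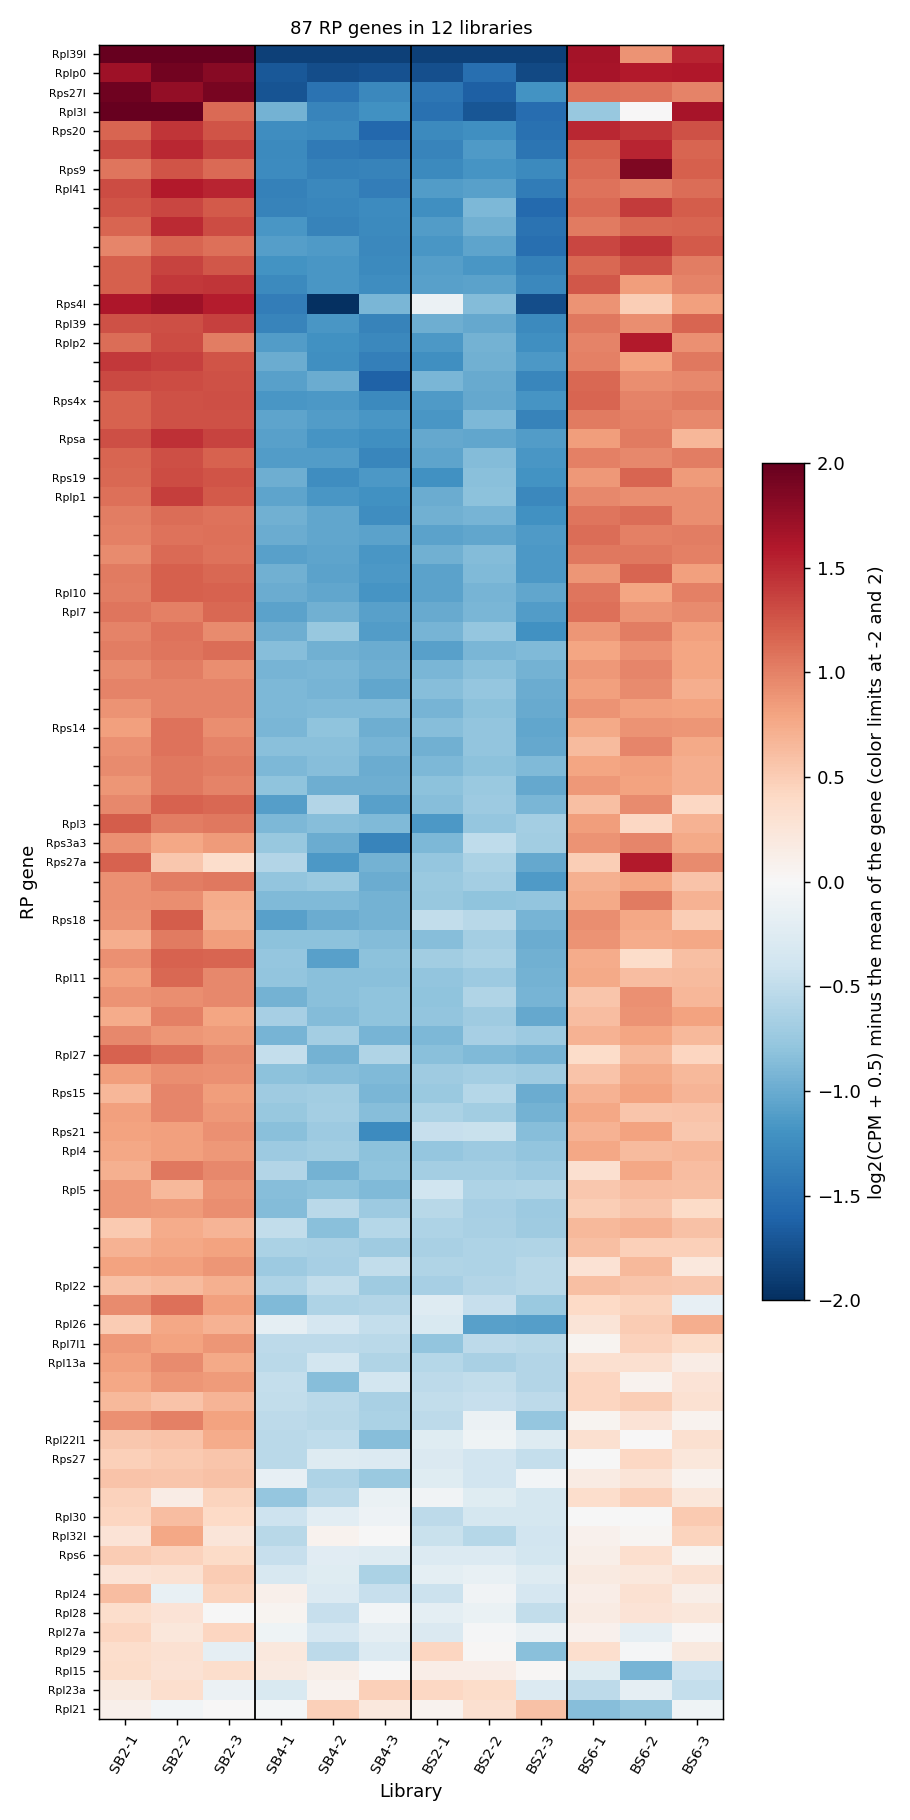
Color gives log2(CPM + 0.5) minus the mean of each gene, for 87 members (rows, ordered by the difference between SB2 with BS6 and SB4 with BS2) in 12 libraries (columns), with names on some rows. The libraries of SB2 and BS6 are high for most rows, with Rpl3l uneven between libraries of BS6, and the lowest rows are Rpl15, Rpl23a and Rpl21.

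Paralogs of core RP genes, which can replace the common protein in some cells, were followed as a share of the counts of their pair, so that a scale common to both genes drops out. Rpl39l, a paralog of Rpl39 best known from the testis, was counted in SB2 and BS6 and had no count in any library of SB4 or BS2. It had 144, 147 and 149 counts in SB2 and 81, 48 and 75 in BS6. This is 8.20, 9.79 and 9.10 CPM in SB2. Against the limit of 3 counts per library that a count of 0 allows, Rpl39l was at least 49.9-fold higher in SB2 than in SB4, and at least 22.1-fold higher in BS6 than in BS2. Its share of the pair was 8.88% ± 0.72 in SB2 and 5.23% ± 1.3 in BS6. All windows of its transcript (chr16:10170226-10174911) are its own.

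Rpl3l replaces Rpl3 in heart and skeletal muscle. Its libraries differed strongly within groups, with 15.7, 18.98 and 4.03 CPM in SB2 and 0.717, 1.57 and 5.98 in BS6, against 0.326 to 0.568 in SB4 and 0.128 to 0.236 in BS2. It took 33.7%, 41.3% and 12.7% of the pair's counts in SB2. The fall in SB4 (-4.92 ± 0.79, adjusted p = 0.00159) and the rise in BS6 (3.804 ± 0.97, adjusted p = 0.0109) passed the test, while SB2 and BS6 overlapped.

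Rps27l, a p53 target that can stand in for Rps27, had 52.6, 46.5 and 50.9 CPM in SB2 and 3.69, 4.46 and 5.18 in SB4, a fall by 3.48 ± 0.12 (adjusted p = 2.77e-10). In BS2 it had 4.60, 3.97 and 5.52 CPM and in BS6 29.1, 28.9 and 27.1, a rise by 2.63 ± 0.16. Rps27 itself fell by 0.96 ± 0.18 and rose by 0.72 ± 0.21, a rise that did not pass without BS2 replicate 2 or 3. The share of Rps27l in the pair was 89.2% ± 0.75 in SB2 and 85.5% ± 2.0 in BS6, and 59.0% ± 2.0 and 60.7% ± 5.2 in SB4 and BS2. Rps27 has only 1.63% of its windows to itself, so its own level is uncertain, and these shares with it.

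Rpl7l1, a factor of large subunit assembly, went the other way within its pair. It took 13.6% ± 0.36 of the counts with Rpl7 in SB2 and 20.7% ± 0.80 in SB4, and 19.4% ± 2.0 in BS2 and 10.3% ± 1.9 in BS6. The gene itself still fell in SB4 (-1.39 ± 0.064) and rose in BS6 (0.97 ± 0.14), by less than Rpl7 (-2.11 ± 0.076 and 2.04 ± 0.12). Rpl22l1, which is known to be held down by Rpl22, took 7.93% ± 0.27 of its pair in SB2 and 7.56% ± 0.61 in SB4, and 10.2% ± 0.68 in BS2 and 6.38% ± 0.73 in BS6. It fell by 1.32 ± 0.16 and rose by 0.48 ± 0.16, beside a fall of 1.25 ± 0.072 and a rise of 1.21 ± 0.084 of Rpl22. The rise of Rpl22l1 did not pass with replicate number as a block, nor without any 1 library of these groups other than BS6 replicate 2. Rps4l, an intronless copy of Rps4x, took 4.80% ± 0.26 in SB2, 3.03% ± 1.4 in SB4, 4.37% ± 2.5 in BS2 and 2.96% ± 0.31 in BS6. Its libraries in BS2 had 10.9, 6.28 and 3.12 CPM, a coefficient of variation of 57.9%.

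**Figure D5:**
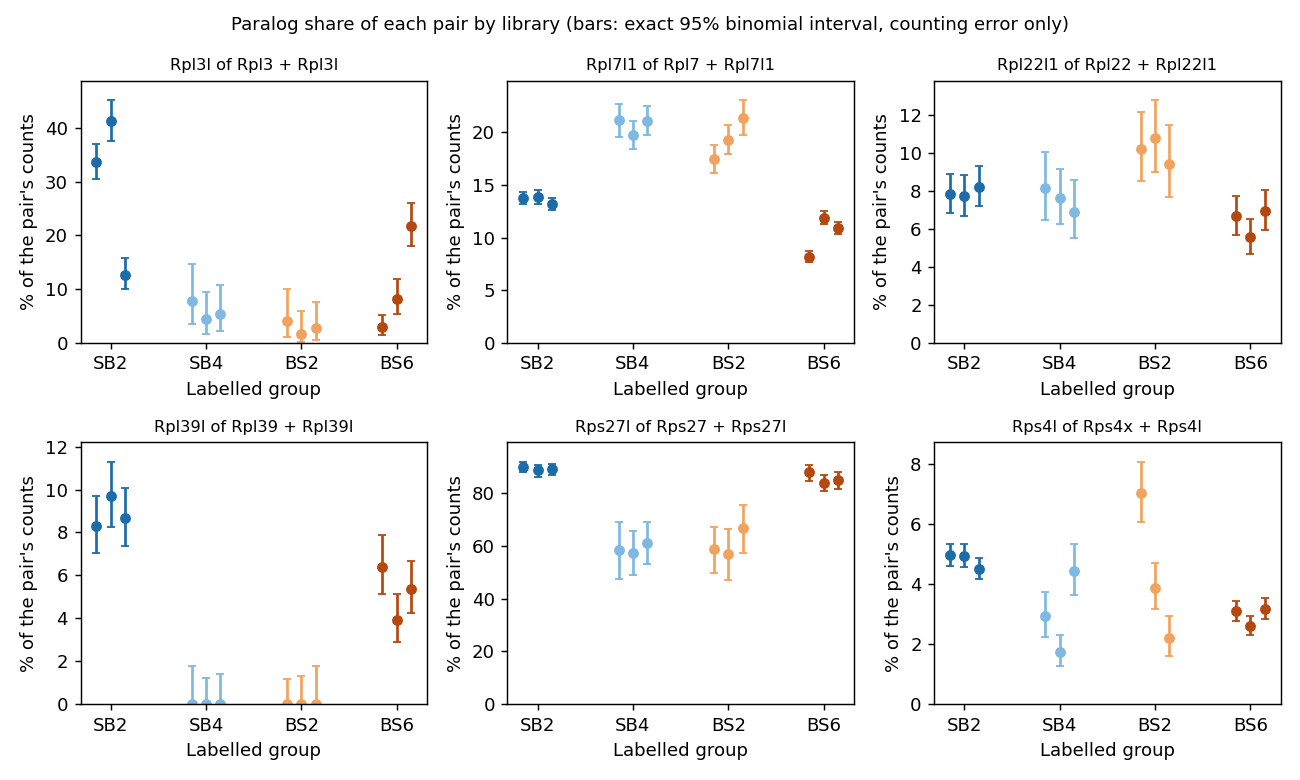
Counts of the paralog as percent of the counts of its pair in each of 12 libraries, by labelled group, for 6 pairs. Bars are exact (Clopper-Pearson) 95% binomial intervals, which cover counting error only. Rpl39l is at 0 in all 6 libraries of SB4 and BS2, and Rps27l takes at least 83.9% in all libraries of SB2 and BS6.

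Between the groups with bone markers, SB2 and BS6, the family differed little. Of 86 members tested, 4 were higher in SB2 at an adjusted p under 0.05 (3.42% of all 16329 genes were), none was lower (2.28%), and none passed the fold rule (0.741% and 1.11%). At an unadjusted p under 0.05, 25 were higher and 0 lower, against 14.6% of all genes in each direction. DESeq2 gave 16 higher and 0 lower, against 6.45% and 6.49% of the 22174 genes it was given, low ones included, and 2 of the 16 passed the fold rule (1.44% higher). The median log2 fold change was 0.21, and 75 members had a positive sign. The libraries of 47 members did not overlap with SB2 higher, against 20.3% of all genes. Cell markers also differed between these groups. Summed osteoblast and osteocyte markers (7 genes) lay between 3322 and 5294 CPM in SB2 and between 1194 and 2830 in BS6. Erythroid markers (5 genes) had 1295 to 4597 CPM in SB2 and 7609 to 12730 in BS6, and B cell markers (5 genes) 18.0 to 28.2 and 29.2 to 69.1. The part of these cells in the result was not tested.

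The 4 members called were Rps2, Rps4l, Rpl15 and Rps27l. Rps27l was 0.80 ± 0.097 higher (adjusted p = 0.0279), Rps2 0.78 ± 0.13 (0.0346) and Rpl15 0.84 ± 0.18 (0.0479). Rps4l was 0.88 ± 0.13 higher (0.0311). None of these 4 passed with replicate number as a block, a fit that called 0 of all 16329 genes. Rpl15 also did not pass with upper-quartile scaling, and Rps4l did not pass in the fit of all 12 libraries (0.85, adjusted p = 0.115). Without BS6 replicate 2, 20 members were called, all higher in SB2, in a fit that called 11.3% of all genes higher and 8.97% lower. Without any other single library no member was called, but these fits called few genes of any kind. Without SB2 replicate 1, 2 or 3, 0 of all genes were called. Without BS6 replicate 1, 17 of 16701 genes were higher and 18 lower, and without BS6 replicate 3, 17 of 16716 and 15. Rpl39l (1.05 ± 0.25, adjusted p = 0.0624) and Rpl3l (2.21 ± 0.87, adjusted p = 0.157) had the largest fold changes but did not pass. Without BS6 replicate 2, Rpl39l passed at 0.83 ± 0.18 (adjusted p = 0.0173). The lowest were Rps27a at -0.36 ± 0.34 and Rps9 at -0.30 ± 0.23, the genes in which BS6 replicate 2 was high.

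Between SB4 and BS2, the groups with brain markers, none of the 83 members tested was called in either direction by edgeR (0.571% of all 16278 genes were higher and 0.369% lower) or by DESeq2. At an unadjusted p under 0.05, 8 were lower in SB4 and 0 higher, against 5.56% and 6.32% of all genes. The median log2 fold change was -0.08 with 69 negative signs, and the libraries of 5 members did not overlap with SB4 lower, against 6.51% of all genes. The median standard error was 0.103, and for Rplp0 the 95% interval of the difference was -0.23 to 0.08. For Rps4l it reached from -1.85 to 0.44.

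Genes that work with the RP genes were counted in lists of their own, to be read against all genes tested, of which 42.0% fell and 41.3% rose in SB4 and 38.2% rose and 36.8% fell in BS6. Among 4 partners named outside the rule, Rack1, a scaffold on the small subunit, fell by 2.55 ± 0.070 and rose by 2.43 ± 0.12, in the pattern of the core members. Fau, which encodes a ubiquitin-like protein fused to an RP, fell by 0.40 ± 0.10 and rose by 0.41 ± 0.12. Rpl36al fell by 3.24 ± 0.60 and was not tested in BS6 against BS2. All 4 thus fell in SB4, and all 3 tested rose in BS6.

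Of 22 genes of translation factors and other known TOP mRNAs, 18 fell and 4 rose from SB2 to SB4, and 15 rose and 4 fell from BS2 to BS6, with medians of -0.80 and 0.78 on the log2 scale. Falls in SB4 and rises in BS6 were thus more frequent here than the 42.0% and 38.2% of all genes. Apart from Eef1a2, the largest changes were those of Tpt1 (-2.42 ± 0.11 and 2.79 ± 0.16) and Pabpc1 (-2.27 ± 0.068 and 2.27 ± 0.12). The elongation factor Eef1a1 fell by 1.83 ± 0.086 and rose by 1.75 ± 0.16. Its paralog Eef1a2, the form of neurons and muscle, did the opposite, with 43.1 CPM in SB2, 987 in SB4, 934 in BS2 and 14.3 in BS6. The helicase Eif4a2, the histone chaperone Nap1l1 and Eif4e also rose in SB4 and fell in BS6.

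Of 30 ribosome biogenesis genes, 21 fell and 4 rose in SB4, and 6 rose and 8 fell in BS6, with medians of -0.58 and -0.03. Against 42.0% of all genes that fell in SB4 and 38.2% and 36.8% that rose and fell in BS6, the list had more falls in the former and fewer calls of either kind in the latter. Npm1, a nucleolar chaperone, followed them (-1.79 ± 0.097 and 1.33 ± 0.13), whereas Tsr1 and Wdr12, factors of subunit maturation, rose in SB4 (0.64 ± 0.10 and 1.06 ± 0.085) and fell in BS6 (-1.603 ± 0.16 and -1.43 ± 0.14). Between SB2 and BS6, 16 of these 30 genes were higher in SB2 (3.42% of all genes) and none lower (2.28%), with a median of 0.59, beside 4 of 86 RP genes with a median of 0.21.

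Of 12 regulators of TOP mRNAs and their transcription, 7 rose and 3 fell in SB4 (41.3% and 42.0% of all genes), and 4 rose and 7 fell in BS6 (38.2% and 36.8%). The share of 4 in 12 that rose in BS6 was near that of all genes. Those that fell most in SB4 were Eif4ebp1, the translational repressor that mTOR phosphorylates (-4.33 ± 0.12), and Myc, a transcription factor for ribosome genes (-3.68 ± 0.12), and both rose most in BS6 (4.39 ± 0.22 and 3.09 ± 0.29). Mtor itself had 54.2 CPM in SB2, 134 in SB4, 122 in BS2 and 57.2 in BS6, opposite to the RP genes. Larp1 did not pass in either (0.09 ± 0.071 and -0.09 ± 0.092). Of the 77 mitochondrial RP genes, 33 fell and 16 rose in SB4, and 15 rose and 25 fell in BS6, with medians of -0.23 and -0.03. The falls were near the shares of all genes (42.0% in SB4 and 36.8% in BS6), and the rises lay below them (41.3% and 38.2%).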

How the data were processed

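The authors trimmed paired reads of poly(A) RNA with fastp, mapped them to mm10 with HISAT2 2.1.0 (version per the labels) and deposited raw counts per gene symbol. The counting program, its annotation, its use of strand and whether the counts precede their ComBat_seq step are not given in the sources used here. Each of the 12 columns carried the title of 1 sample, and no column was left over. Of 22317 symbols, 22022 were found in GENCODE M21.

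The study tested 2 groups at a time with DESeq2. Here the robust quasi-likelihood test of edgeR 4.0.16 (R 4.3.3) was used, also in fits of 2 groups, with TMM scaling, Benjamini-Hochberg adjustment and removal of low genes by filterByExpr (smallest count 10), after the script was tested on simulated data. SE is the log2 fold change over the root of F. CPM uses TMM factors over the 12 libraries. Depth was 14126082 to 18972654 counts per library. Binomial intervals cover counting error only, whereas 95% intervals of fold changes, made from the SE, carry the spread between libraries. The latter can be narrower than the edgeR test allows. For Rpl23a in BS6 against BS2 the interval of -1.439 to -0.092 left out no change, at an unadjusted p of 0.065 in that test.

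Replicates of 1 group differed by more than sampling noise in every pair. Alternatives were DESeq2 1.42.0, other scalings and filters, all 12 libraries, the replicate block and leaving out libraries. Named members (44) were both genes of each paralog pair, the 5 largest and 5 smallest fold changes per comparison at 1 CPM or more, the 5 highest and lowest per length, the stalk, Rpsa, Rpl5, Rpl11, Rps6, Rps14 and Rps19, and those not tested. Members, lists and rules were chosen with earlier results of these data known. Rpl18, Rpl6l, Rps28, Rps2 and Rps3a2 were named after their values were seen. Some genes are not reported here by name.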

Additional observations from a re-analysis of the deposited data

Results flagged for a closer look

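The change from SB2 to SB4 and the change from BS2 to BS6 were set against each other for the named members by a contrast over all 12 libraries in edgeR, and the 39 given here differed at an adjusted p under 0.05. The difference is (SB4 minus SB2) minus (BS6 minus BS2) on the log2 scale. Each side sets libraries with bone markers against libraries with brain markers, in opposite order. Within each change, the day and the tissue content thus differ together. In the difference of the changes, a change over days shared by both sides cancels, whereas the differences in tissue content add up. The part of each was not tested.

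Among the genes given here, those of the core ribosome with the most negative values were Rplp0 (-6.91), Rps20 (-5.46), Rps9 (-5.22), Rpl41 (-5.15), Rpl39 (-4.83), Rplp2 (-4.73), Rps4x (-4.67), Rpsa (-4.48), Rps19 (-4.47) and Rplp1 (-4.4). Rpl10 (-4.24), Rpl7 (-4.16), Rpl3 (-3.68), Rps27a (-3.65), Rps14 (-3.63), Rps18 (-3.62), Rpl11 (-3.35), Rpl27 (-3.3), Rps15 (-3.14) and Rps21 (-3.1) followed. Smaller differences were found for Rpl26 (-3.09), Rpl4 (-3.06), Rpl5 (-2.92), Rpl22 (-2.46), Rpl13a (-2.42), Rpl24 (-2.05), Rps27 (-1.69), Rpl30 (-1.46), Rps6 (-1.34), Rpl28 (-0.92) and Rpl27a (-0.745).

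Of the paralogs and copies, Rpl3l had -8.73, Rps27l -6.13, Rps4l -4.75, Rps3a3 -3.95, Rpl7l1 -2.37 and Rpl22l1 -1.8. The value of Rpl39l, -19.3, rests on groups without any count and is not a measured size. Rpl21 alone was positive, at 1.14.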

How the results depend on the processing

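With the summed RP counts as library size, which removes the shift of the family by construction and moves the median of all genes by 2.07 and -1.88 on the log2 scale, the median of the members became 0.21 for SB4 against SB2, -0.23 for BS6 against BS2 and 0.052 for SB2 against BS6. Calls with the fold rule became 16 and 18, and calls at an adjusted p under 0.05 became 50 for BS6 against BS2. Among the named members that were called, the sign for SB4 against SB2 then turned for Rpl11 (0.29), Rpl13a (0.66), Rpl15 (1.84), Rpl22 (0.84), Rpl22l1 (0.76), Rpl26 (0.81), Rpl27 (0.27), Rpl27a (1.51), Rpl3 (0.030), Rpl30 (1.33), Rpl4 (0.52), Rpl5 (0.37), Rpl7l1 (0.70), Rps14 (0.25), Rps15 (0.49), Rps21 (0.30), Rps27 (1.12), Rps27a (0.40) and Rps6 (1.30). For BS6 against BS2 it turned, among the named members called there, for Rpl11 (-0.36), Rpl13a (-0.93), Rpl22 (-0.70), Rpl22l1 (-1.42), Rpl26 (-0.069), Rpl27 (-0.43), Rpl28 (-1.345), Rpl3 (-0.29), Rpl30 (-1.205), Rpl4 (-0.42), Rpl5 (-0.71), Rpl7l1 (-0.94), Rps14 (-0.12), Rps15 (-0.37), Rps18 (-0.38), Rps21 (-0.60), Rps27 (-1.19), Rps3a3 (-0.10), Rps4l (-0.27) and Rps6 (-1.37).

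Under the other settings the calls of SB4 against SB2 lay between 79 and 82 and those of BS6 against BS2 between 79 and 83. Leaving out 1 library gave 80 to 82 and 72 to 82. For SB2 against BS6, calls were 14 in the fit of all 12 libraries and 16 by DESeq2, all higher in SB2. In each, 2 passed the fold rule. Of all genes, the fit of all 12 libraries called 1910 of 18068 higher and 2354 lower, and 326 higher by the fold rule. DESeq2 called 1431 of 22174 higher and 1438 lower, and 320 higher by the fold rule. With the replicate block, calls were 0 among the members and 0 among all 16329 genes. With total counts 1 passed the fold rule, as did 163 of all 16329 genes as higher and 125 as lower, and the median was 0.27. Without 1 library, member calls at an adjusted p under 0.05 ranged from 0 to 20. Calls of all genes then ranged from 0 to 1885 higher and from 0 to 1489 lower. The causes were not tested. The difference of the family's share in percentage points was -1.68 and 1.44 without the 10 most abundant genes, -1.63 and 1.28 with the -ps symbols, and -1.02 and 0.845 without the 5 most abundant members.

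Correlations of same-numbered libraries lay between -0.103 and 0.0881, and those of differently numbered ones between -0.134 and 0.187. They thus gave no sign of pairing by number, but 3 libraries per group are too few to exclude it. With the replicate block, calls were 81, 78 and, for SB4 against BS2, 1. Of all genes, this fit called 7045 of 17293 higher and 7154 lower in SB4 against SB2. In BS6 against BS2 it called 6234 of 17311 higher and 6102 lower, and in SB4 against BS2 136 of 16278 and 120. Of the 44 named members, no called value turned sign outside the setting by summed RP counts, while some values that were not called and lay near 0 did. For BS6 against BS2, Rpl30 lost its call without any 1 library of BS2 or BS6 replicate 3, and Rps4l without BS2 replicate 2. Rpl23a, Rpl24, Rpl26, Rpl29 and Rpl32l have few counts, which limits what can be said of them.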
